A study of Mus musculus with 19 samples.

Results

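The chemokine ligands described here are the 39 genes, of 26221 in the normalized table of the series, whose symbols begin with Ccl, Cxcl, Cx3cl or Xcl followed by a digit. The choice rests on names alone, and all 39 are counted whether or not they had reads. Across the 19 libraries, 33 of them had at least 1 read and 6 had none. RNA sequencing was done on flow-sorted nasal epithelial cells of a ChAT-eGFP mouse line, in which a bacterial artificial chromosome transgene marks cells that use the regulatory region of Chat with enhanced green fluorescent protein (eGFP). FSClow (9 libraries) holds eGFP-positive cells, sorted as EpCAM-positive and CD45-negative, with low forward and side scatter, and FSChi (5 libraries) holds the same kind of cell with high scatter. The labels call these brush cells, a name for solitary chemosensory or tuft cells. EpCAM (5 libraries) holds CD45-negative, EpCAM-positive cells without eGFP, a mixture of the remaining epithelial types. All groups come from the same transgenic strain, without treatment, and all cells went through dispase and papain before sorting. The age and sex of the mice are not given in the sources used here. Nothing in the labels ties a library to an animal, so p-values rest on the spread among libraries alone, and that spread may be technical.

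Chemokines are small secreted proteins that direct the movement of leukocytes through G protein-coupled receptors. They are grouped by the spacing of their first cysteines into CC, CXC, CX3C and XC ligands. Airway epithelium is a source of several of them, some at rest and others after cytokine or microbial stimulation, when transcription factors of the NF-kB and interferon pathways act on their promoters. Atypical chemokine receptors bind many of the same ligands and take them up without G protein signalling.

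Total counts ran from 1348428 to 7477695 per library. Brush cell markers fixed as a list (such as Trpm5, Pou2f3 and Chat) were higher than in EpCAM for 18 of 18 genes in both eGFP-positive gates, and their summed level was 13700 to 18400 CPM (reads scaled to a common library total) in FSClow, 10800 to 17700 in FSChi and 74.4 to 132 in EpCAM. Of all genes tested, 22.0% were higher than in EpCAM in FSClow and 13.5% in FSChi. For 14 libraries the column of the count table was most similar to that library's own separate file. The columns of FSChi replicates 3, 4 and 5 and EpCAM replicates 1 and 2 were most similar to another file of the same group, and the separate file of FSChi replicate 3 was nearly empty, with 6807 expected counts. For FSChi replicate 5 the correlation with the most similar file was 0.9221, beside 0.9163 with its own, so no file matched this column clearly. Results below come from the count table unless said otherwise, and groups are those of its column names.

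Chemokine ligands were a small part of every library and were most abundant outside the eGFP-positive gates. Their summed level was 204 to 431 CPM in EpCAM, with a median of 235. In FSChi the 5 sums were 105, 30.5, 101, 104 and 38.6 CPM, and in FSClow the sums ran from 8.96 to 34.7 CPM with a median of 19.5. EpCAM libraries did not overlap with either eGFP-positive group, whereas FSChi replicate 2 lay within the FSClow range. As a share of all counts, the medians were 0.0239% in EpCAM, 0.00913% in FSChi and 0.00211% in FSClow. The number of members with a read was 19 to 23 per library in EpCAM, 7 to 21 in FSChi and 5 to 13 in FSClow. In these bulk samples, fewer cells of a type and less RNA per cell cannot be told apart.

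**Figure D1:**
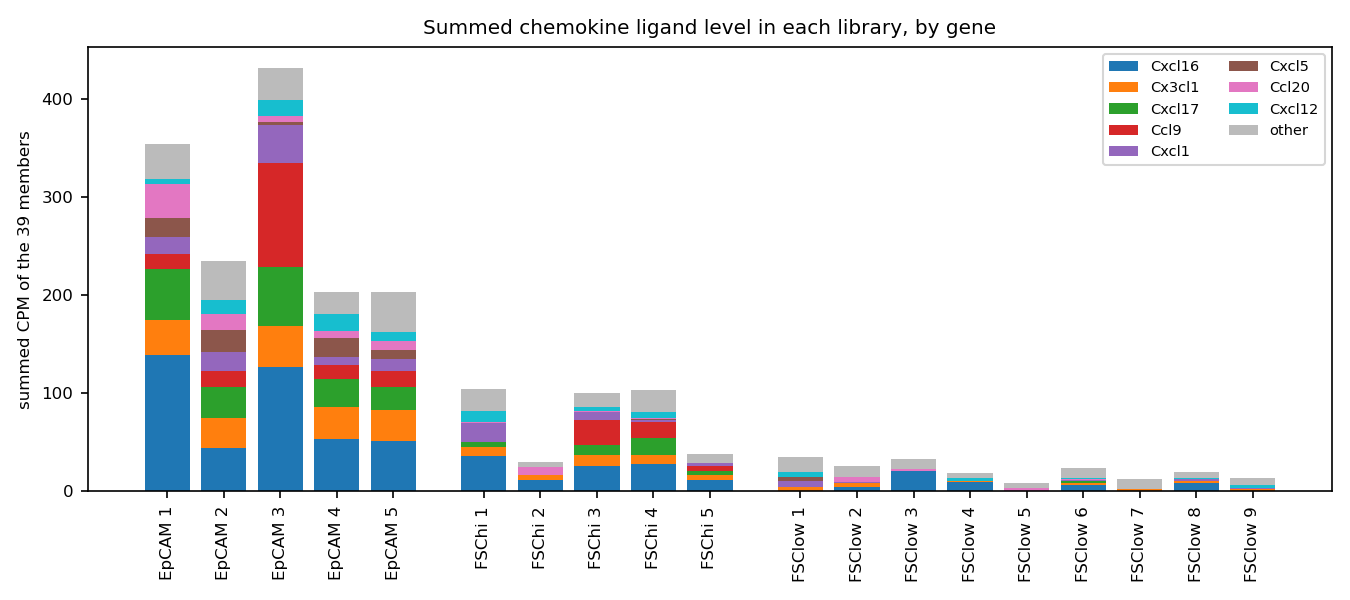
Summed CPM of the 39 chemokine ligands in each library (bars), divided by gene (colours), with the groups set apart along the horizontal axis. All EpCAM bars stand above 200 CPM, FSChi replicates 1, 3 and 4 stand near 100 CPM, and no FSClow bar passes 34.7 CPM.

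Members were tested in an edgeR quasi-likelihood fit over all genes and all 19 libraries, and a gene with an adjusted p under 0.05 is called higher or lower. The filter on low counts kept 11 of the 39 members, mostly through their EpCAM counts, and 28 were not tested, so the counts below are a description of those 11. Against EpCAM, FSClow had 0 members higher and 10 lower, where 45.1% of the 13340 genes tested were called, 22.0% higher and 23.1% lower. FSChi had 0 higher and 4 lower than EpCAM, where 25.6% of genes were called, 13.5% higher and 12.2% lower. Set against FSClow, FSChi had 5 members higher and 0 lower, where 24.8% of genes were called, 15.5% higher and 9.30% lower. The median log2 fold change of the 11 members was -3.89, -1.73 and 1.85 in these comparisons, beside 0.05, -0.02 and -0.01 over all genes. With only the 14 columns most similar to their own file, 12 members were tested. Of these, 9 were lower in FSClow than in EpCAM, 2 were lower in FSChi than in EpCAM and 2 were higher in FSChi than in FSClow. The share of all genes called in that fit is not given here. Each of the 5 calls in FSChi against FSClow was lost under some alternative: Cxcl16 in 13 of 30, Cxcl1 in 6 of 27, Cx3cl1 in 4 of 30, Cxcl17 in 4 of 27 and Ccl9 in 4 of 27 with 1 reversal. The 3 comparisons share libraries, so their values for a gene are given side by side and are not independent of each other.

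**Figure D2:**
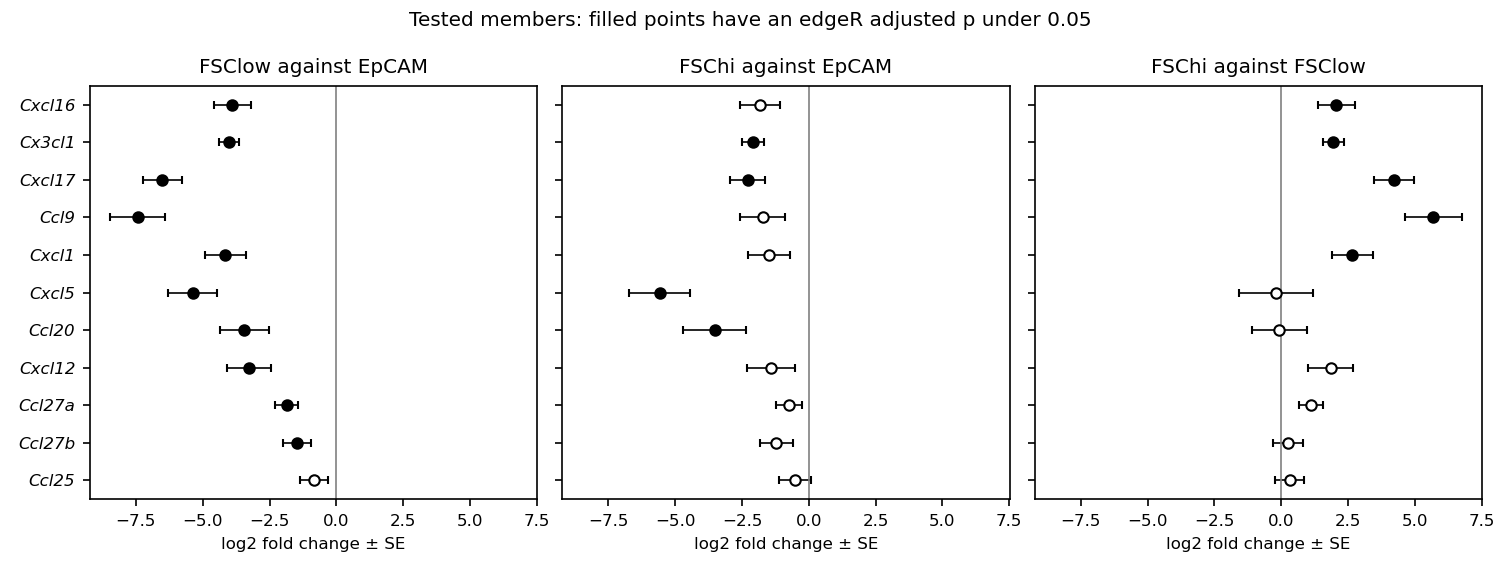
Log2 fold changes (points) with standard errors (bars) of the 11 members tested, in the 3 comparisons, on a shared axis. Filled points passed an edgeR adjusted p of 0.05: 10 in FSClow against EpCAM, 4 in FSChi against EpCAM and 5 in FSChi against FSClow.

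The membrane-anchored ligands followed a stepwise order of the groups, from EpCAM over FSChi to FSClow. Cx3cl1 encodes fractalkine, which holds cells bearing Cx3cr1 as an anchored protein and attracts them once shed. Its level was 35.9, 29.9, 41.6, 32.9 and 32.2 CPM in EpCAM replicates 1 to 5. FSChi replicates 1 to 5 gave 8.70, 5.62, 11, 9.71 and 4.61 CPM, and FSClow ran from 0 to 4.09 CPM with a median of 2.12. No group overlapped with another, and EpCAM was high in every library. The log2 fold change was -4.03 ± 0.37 (SE) in FSClow against EpCAM (edgeR adjusted p = 4.8e-09), -2.08 ± 0.41 in FSChi against EpCAM (0.00057) and 1.95 ± 0.39 in FSChi against FSClow (0.00054).

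Cxcl16 encodes the other anchored ligand, which binds Cxcr6 and also acts as a scavenger receptor for oxidized lipid. It had the most reads of all members in each group, with means of 83.2 ± 45.9 CPM (SD, n = 5) in EpCAM, 22.8 ± 10.9 (n = 5) in FSChi and 5.49 ± 6.72 (n = 9) in FSClow. EpCAM replicates 1 and 3 were high at 139 and 127 CPM, and the other EpCAM libraries lay between 44.7 and 53.6 CPM. FSChi libraries gave 36.4, 11.2, 26.3, 28.0 and 12.1 CPM. FSClow ran from 0 to 20.6 CPM, with no read in replicates 5, 7 and 9. EpCAM stood clear of both gates, while FSChi and FSClow overlapped through FSClow replicate 3. In FSClow against EpCAM Cxcl16 was lower (log2 fold change -3.89 ± 0.68, SE; edgeR adjusted p = 8.6e-05). FSChi against EpCAM gave -1.83 ± 0.76 and missed the threshold (adjusted p = 0.083), although it passed in a fit of these groups alone (0.0056). FSChi against FSClow gave 2.06 ± 0.68 (adjusted p = 0.033), and this call was lost by leaving out FSChi replicate 1 (1.85, adjusted p = 0.089), FSChi replicate 3 (2.05, 0.056), FSChi replicate 4 (2.01, 0.068) or FSClow replicate 2 (2.04, 0.050). The separate RSEM files hold 1510 expected counts for this gene over all libraries where the count table holds 2974, so its absolute level depends on the counting.

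**Figure D3:**
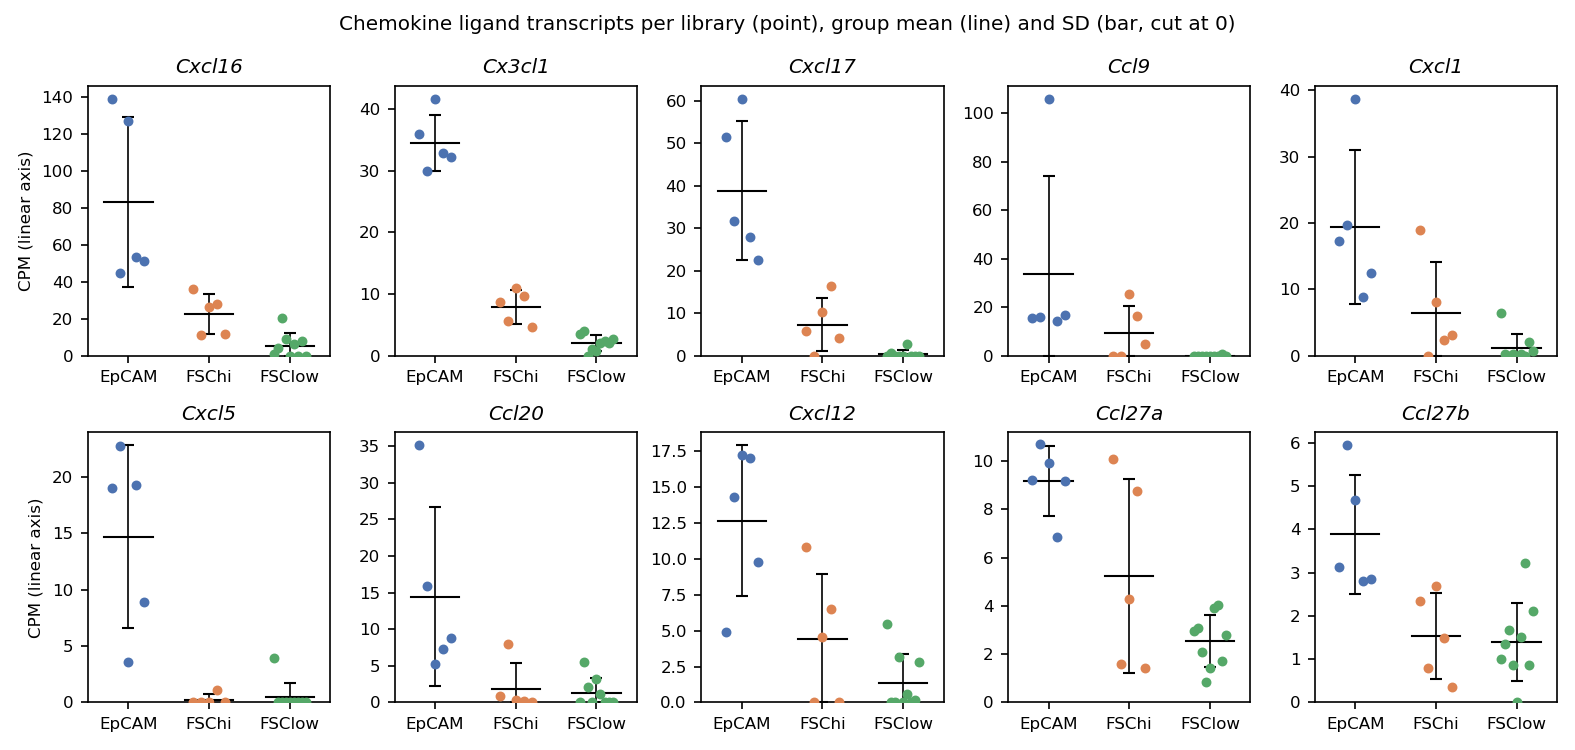
CPM of the 10 members described in full in each library (points; replicates run from left to right), with the group mean (line) and SD (bar, not drawn under 0), on linear axes that differ between panels. EpCAM is the highest group for each gene shown, and Cx3cl1 is a gene with no overlap between any groups.

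The ELR CXC ligands bind Cxcr2 and recruit neutrophils. They are 5 of the members (Cxcl1, Cxcl2, Cxcl3, Cxcl5 and Cxcl15) and lie within chr5:90759298-90905938 of the GRCm38.p6 (mm10) assembly, together with no other member. Cxcl1 gave 17.3, 19.7, 38.7, 8.88 and 12.5 CPM in EpCAM. Its FSChi values were 19, 0, 8.06, 2.43 and 3.19 CPM, and in FSClow it ran from 0 to 6.45 CPM with a median of 0.302. FSChi replicate 1 lay within the EpCAM range and FSChi replicate 2 had no read. Cxcl1 was lower in FSClow than in EpCAM (log2 fold change -4.15 ± 0.76 SE, edgeR adjusted p = 9e-05) and -5.00 without FSClow replicate 1, its highest FSClow library. FSChi against EpCAM gave -1.49 ± 0.79 (adjusted p = 0.18), and -2.41 (0.043) without FSChi replicate 1. FSChi was higher than FSClow by 2.66 ± 0.78 (adjusted p = 0.014), which became 1.83 (0.11) without FSChi replicate 1 and 3.52 without FSClow replicate 1.

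Cxcl5, which acts on the same receptor, was almost confined to EpCAM in these libraries, at 19, 22.8, 3.56, 19.3 and 8.89 CPM. Among the 14 eGFP-positive libraries only FSClow replicate 1 (3.97 CPM, 8 reads) and FSChi replicate 4 (1.12 CPM, 6 reads) had any read of it. EpCAM did not overlap with FSChi, and it overlapped with FSClow through that replicate alone. The log2 fold change was -5.38 ± 0.92 (SE) in FSClow (edgeR adjusted p = 3.2e-05) and -5.58 ± 1.15 in FSChi (0.00088), and it was -8.94 without FSClow replicate 1 and -8.92 without FSChi replicate 4. Those groups then hold no read, so these fitted sizes depend on the prior count of the fit and are no bounds. FSChi against FSClow gave -0.19 ± 1.38 (adjusted p = 0.94), a difference this depth does not resolve. Cxcl2 and Cxcl3 did not pass the filter. Cxcl2 had 73 reads in EpCAM, 33 in FSChi and 6 in FSClow. Cxcl3 had 22 reads in 4 EpCAM libraries, with 9 in replicate 4 and 11 in replicate 5, and none in the gates. Pooled over libraries, EpCAM was at least 7.43-fold higher than FSClow and at least 5.59-fold higher than FSChi against a floor of 3 reads over a group. This bound does not hold for each EpCAM library, as replicate 1 had no read. Cxcl15, known from lung epithelium, had 4 reads each in EpCAM and FSChi and none in FSClow.

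Promoter sequence was read from the RefSeq promoter table (GRCm38.p6), which matched 27 of the 39 members by gene identifier. Cxcl5, Cxcl16 and Cxcl17 did not match. The kappa-B consensus, the element bound by NF-kB, was searched by its letters on both strands in the 250 bases before each start. It occurred in 7 of the 27 members (Ccl1, Ccl20, Ccl9, Cxcl1, Cxcl10, Cxcl2 and Cxcl3) and in 8.23% of 27025 genes. Cxcl1, Cxcl2 and Cxcl3 carried the identical run GGGAATTTCCC, beginning 71, 97 and 73 bases before their starts. Ccl20 and Ccl9, described further on, carried related runs beginning 80 and 35 bases before their starts. The 120 bases before the start of these 5 genes are shown 5′ to 3′ on the strand of the gene because they share this element, with the matching run in capitals.
Cxcl1 (chr5:90891125-90891244, plus strand): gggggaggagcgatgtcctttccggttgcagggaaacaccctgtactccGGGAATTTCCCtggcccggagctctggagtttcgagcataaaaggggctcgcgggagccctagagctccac
Cxcl2 (chr5:90903779-90903898, plus strand): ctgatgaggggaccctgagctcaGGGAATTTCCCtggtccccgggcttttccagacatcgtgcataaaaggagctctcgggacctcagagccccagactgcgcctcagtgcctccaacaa
Cxcl3 (chr5:90785981-90786100, plus strand): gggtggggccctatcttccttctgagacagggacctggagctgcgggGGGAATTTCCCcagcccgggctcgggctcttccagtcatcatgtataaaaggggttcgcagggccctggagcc
Ccl20 (chr1:83116646-83116765, plus strand): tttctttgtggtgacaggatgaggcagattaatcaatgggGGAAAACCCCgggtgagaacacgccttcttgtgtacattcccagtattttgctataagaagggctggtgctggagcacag
Ccl9 (chr11:83578637-83578756, minus strand): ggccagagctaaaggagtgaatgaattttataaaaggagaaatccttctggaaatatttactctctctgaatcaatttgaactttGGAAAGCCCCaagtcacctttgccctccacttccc

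A match in these letters is a description and not evidence of binding. Cxcl1, Ccl20 and Ccl9 were lower in FSClow than in EpCAM, and so were Cx3cl1, Cxcl12, Ccl27a and Ccl27b, whose windows held no such run. The interferon-stimulated response element core, GAAA, then any 2 bases, then GAAA, on either strand, occurred in 3 of the 27 members (Ccl19, Cxcl10 and Cxcl14) and in 3.46% of genes.

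Among the other CXC ligands, Cxcl17, a mucosal chemokine of airway and gut epithelium, had the largest level per transcript length of all members in EpCAM. Its CPM was 51.6, 31.8, 60.5, 27.9 and 22.6 in EpCAM and 5.88, 0, 10.3, 16.4 and 4.25 in FSChi. Of 9 FSClow libraries, 7 had no read, and replicates 2 and 6 gave 0.682 and 2.72 CPM. EpCAM did not overlap with either gate, and FSChi overlapped with FSClow only through replicate 2. Log2 fold changes were -6.51 ± 0.72 (SE) in FSClow against EpCAM (edgeR adjusted p = 9.3e-08), -2.29 ± 0.66 in FSChi against EpCAM (0.013) and 4.22 ± 0.75 in FSChi against FSClow (0.00019). Leaving out FSClow replicate 6 moved the first to -8.44 and the last to 6.15. In FSChi against EpCAM the adjusted p was 0.085 with DESeq2.

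Cxcl12, the ligand of Cxcr4 and Ackr3 that retains stem cells and lymphocytes, gave 4.91, 14.3, 17.2, 17.0 and 9.79 CPM in EpCAM. Its FSChi values were 10.8, 0, 4.57, 6.53 and 0 CPM. FSClow ran from 0 to 5.45 CPM, with a median of 0.171. Both gates overlapped with EpCAM, FSChi through replicates 1 and 4 and FSClow through replicate 1. FSClow was lower than EpCAM (log2 fold change -3.28 ± 0.83 SE, edgeR adjusted p = 0.0024), whereas FSChi gave -1.42 ± 0.90 against EpCAM (0.26) and 1.85 ± 0.85 against FSClow (0.12). Without FSClow replicate 1 the last value was 2.41 with an adjusted p of 0.041. Cxcl14, an epithelial chemokine, had 54 reads in EpCAM, 12 in FSChi and 1 in FSClow, and Cxcl13, which guides B cells, had 5 reads in all. The interferon-induced Cxcr3 ligands, which attract activated T cells, were scarce. Cxcl10 had 60 reads spread over all EpCAM libraries, 2 in FSChi and none in FSClow (EpCAM at least 20.3-fold higher than FSClow). Cxcl9 had 20 reads in EpCAM, all in replicate 5, and Cxcl11, listed by RefSeq as a transcribed pseudogene, had none.

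The CC ligands of monocytes and macrophages were represented by Ccl9. Ccl9, a ligand of Ccr1, gave 15.7, 16.2, 106, 14.2 and 16.7 CPM in EpCAM. In FSChi replicates 1 and 2 had no read, and replicates 3, 4 and 5 gave 25.7, 16.6 and 4.96 CPM. Only FSClow replicate 8 had reads among the FSClow libraries, at 0.856 CPM (5 reads). FSClow was thus clear of EpCAM, and FSChi overlapped with both groups. The log2 fold change was -7.43 ± 1.03 (SE) in FSClow against EpCAM (edgeR adjusted p = 3.5e-06), and -6.44 without EpCAM replicate 3. Without FSClow replicate 8 that group holds no read, and the fitted value of -10.05 depends on the prior count. FSChi against EpCAM gave -1.73 ± 0.84 (adjusted p = 0.14) and FSChi against FSClow 5.69 ± 1.06 (0.0004). The last value was 4.96 without FSChi replicate 3 and, against a group with no read, 8.32 without FSClow replicate 8. It turned to -2.52 when only columns most similar to their own file were used, which leaves FSChi replicates 1 and 2, both without a read.

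Ccl9 belongs to a group of 11 members on chromosome 11 between 82035577 and 83664683, of which 8 had any read and only Ccl9 passed the filter. Its neighbour Ccl6, also a Ccr1 ligand, had 85 reads in EpCAM (0.156 to 6.48 CPM), 25 in FSChi and none in FSClow, so EpCAM was at least 28.7-fold and FSChi at least 11.1-fold higher than FSClow. In FSChi 4.48 CPM of Ccl6 came from replicate 4 and 0.134 CPM from replicate 3. Ccl8 had 8 reads, Ccl5 had 4, Ccl3 had 3 and Ccl7 had 1, while Ccl2, Ccl12 and Ccl4 had none. These ligands are induced in inflammation and by leukocytes themselves. Ccl3 and Ccl4 overlap in the annotation, and their reads could not be told apart without strand.

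Ligands of eosinophils and of type 2 immunity, which act through Ccr3, Ccr4 and Ccr8, did not pass the filter in any case. Ccl11 (eotaxin) had 42 reads in EpCAM and 1 in FSClow, and 37 of the former were in EpCAM replicate 1 (7.26 CPM). Ccl17 had 10 reads in FSChi, with at least 1 in each library, 5 in EpCAM and 1 in FSClow. Ccl22 had 5 reads, Ccl24 had 4, Ccl1 had 3 and Ccl26 had 1. A sum of 0 reads in all libraries, as for Ccl2, allows up to 0.039 CPM at a floor of 3 reads, counting error only.

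Of the members tested, the homeostatic CC ligands Ccl25, Ccl27a and Ccl27b differed least between FSClow and EpCAM. Ccl20, which draws cells bearing Ccr6 to mucosal surfaces, gave 35.1, 15.9, 5.24, 7.32 and 8.74 CPM in EpCAM. FSChi gave 0.941, 8.04, 0.269, 0.187 and 0 CPM, and FSClow ran from 0 to 5.46 CPM with a median of 0. Both gates reached into the EpCAM range, FSChi through replicate 2 (10 reads) and FSClow through replicate 2. Ccl20 fell in FSClow against EpCAM (-3.44 ± 0.90, log2 fold change and SE; edgeR adjusted p = 0.0032), and the value was -4.25 without FSClow replicate 2. With columns most similar to their own file this call was lost (-2.48, 0.062). FSChi against EpCAM was -3.52 ± 1.17 (0.030), or -5.22 without FSChi replicate 2, and lost its call without any of 6 libraries, with values from -3.50 to -2.85 and adjusted p from 0.052 to 0.10. Those libraries were FSChi replicates 1, 3, 4 and 5 and EpCAM replicates 1 and 2. The value was -0.85 (0.77) with columns most similar to their own file, and the call was also lost with DESeq2 (0.086), RSEM counts (0.08), log2(TPM + 0.1) (0.059) and no filter on low counts (0.055). FSChi against FSClow gave -0.08 ± 1.03 (0.97) and changed sign in 16 of 27 alternatives.

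Ccl27a and Ccl27b are near-identical copies on chromosome 4 of a skin and mucosal ligand of Ccr10, and their reads may have been split between them by the counting. The separate RSEM files give 365 expected counts to Ccl27a and 0 to Ccl27b, where the count table has 446 and 180. Ccl27a ran from 6.86 to 10.7 CPM in EpCAM, was 10.1, 1.61, 4.30, 8.77 and 1.42 CPM in FSChi and ran from 0.860 to 4.03 CPM in FSClow. FSClow and EpCAM were clear of each other, and FSChi reached into both. Ccl27a was lower in FSClow than in EpCAM (log2 fold change -1.85 ± 0.43 SE, edgeR adjusted p = 0.00097). This call was lost with log2(TPM + 0.1) (-2.64, limma adjusted p = 0.15) and with log2(TPM + 1) and no filter (-2.2, 0.07). FSChi gave -0.74 ± 0.48 against EpCAM (0.28) and 1.1 ± 0.44 against FSClow (0.068). The last passed without FSChi replicate 2 (1.29, 0.032), FSChi replicate 5 (1.39, 0.024) or FSClow replicate 7 (1.26, 0.047), with DESeq2 (1.22, 0.034) and with RSEM counts (1.57, 0.042), and it was -0.16 (0.95) with log2(TPM + 0.1). Ccl27b averaged 3.89 ± 1.38 CPM (SD, n = 5) in EpCAM, 1.54 ± 0.991 (n = 5) in FSChi and 1.40 ± 0.910 (n = 9) in FSClow, with FSClow replicate 7 inside the EpCAM range. Ccl27b was lower in FSClow than in EpCAM (-1.47 ± 0.53, adjusted p = 0.025). It was not past the threshold without EpCAM replicate 2 (-1.27, 0.086) or with columns most similar to their own file (-1.37, 0.13).

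Ccl25, a ligand of Ccr9 known for homing of lymphocytes to the small intestine, was the member tested with no call in any comparison. It gave 3.53, 4.99, 2.43, 3.43 and 5.87 CPM in EpCAM and 3.76, 0, 2.69, 2.05 and 4.96 CPM in FSChi, and ran from 0.704 to 6.29 CPM in FSClow. All 3 groups overlapped. FSClow against EpCAM gave -0.84 ± 0.52 (log2 fold change and SE; edgeR adjusted p = 0.20), and FSChi gave -0.52 ± 0.59 (0.57) and 0.32 ± 0.54 (0.71) against EpCAM and FSClow. The count table holds 237 reads of Ccl25 over all libraries and the RSEM files 780 expected counts. Ccl28, a mucosal ligand of Ccr10, had 92 reads in EpCAM, 32 in FSChi and 16 in FSClow and was not tested. The lymphoid ligands of Ccr7 were rare, with 3 reads of Ccl19. Ccl21a and Ccl21b, near-identical copies, had 13 and 17 reads in FSClow, 1 and 1 in FSChi and 3 and 3 in EpCAM, and Ccl21c had none. Most of the FSClow reads were in replicates 1 and 2, with 6 and 5 of Ccl21a and 5 and 9 of Ccl21b. The RSEM files give 4.78 and 0.7 expected counts over all libraries, where the count table has 17 and 21. Xcl1, a lymphocyte product, had no read.

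Levels of different genes were compared in TPM, which is scaled by transcript length and comes from the separate files. In EpCAM, Cxcl17 had 116 ± 48.8 TPM (SD, n = 5), and Ccl27a (45.4 ± 9.12), Cxcl1 (41.3 ± 25.5), Ccl20 (38.4 ± 31.4) and Cxcl16 (31.8 ± 16.5) followed. The last 4 do not differ beyond their spread. In FSChi without the nearly empty file, Ccl27a (26.0 ± 17.9 TPM; SD, n = 4) and Cxcl17 (22.3 ± 20.4) led with overlapping spreads, before Cxcl1 (13.1 ± 14) and Cxcl16 (11.7 ± 2.04). FSClow was led by Ccl27a (11.6 ± 7.07 TPM; SD, n = 9) and Ccl25 (10.4 ± 4.34), again within each other's spread, before Ccl20 (4.08 ± 5.63) and Cxcl16 (2.18 ± 3.38). Ccl25, in ninth place in EpCAM at 13.8 ± 3.53 TPM, thus stood second in FSClow, where Cxcl17 had 0.967 ± 2.33 TPM.

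The classical receptors of these ligands had few reads in any group. Of 19 chemokine receptor genes only Cxcr4 passed the filter, and it was lower than in EpCAM (3.95 CPM) in both FSClow (0.0336) and FSChi (0.671). Cxcr6, the receptor of Cxcl16, is named after its values were seen; it was not tested and gave 0.470 to 8.04 CPM in FSChi, 0 to 4.45 in FSClow and 0 to 0.951 in EpCAM. Ackr4, which takes up Ccl19, Ccl21 and Ccl25, was 119 to 272 CPM in FSClow with a median of 183. It was 67.0, 65.9, 109, 51.9 and 51.0 CPM in FSChi, and 1.57, 3.33, 2.62, 4.83 and 3.46 CPM in EpCAM. No group overlapped with another, and the order of groups was the reverse of that for most ligands. The log2 fold change of Ackr4 against EpCAM was 5.91 ± 0.31 (SE) in FSClow (edgeR adjusted p = 4.9e-13) and 4.43 ± 0.30 in FSChi (7e-11), and FSChi against FSClow gave -1.48 ± 0.23 (4.3e-05).

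Ackr3, which takes up Cxcl12, went the other way, at 27.3, 34.0, 63.8, 68.7 and 32.7 CPM in EpCAM and 12.0, 22.5, 4.57, 11.8 and 7.44 CPM in FSChi. FSClow ran from 0 to 4.22 CPM with a median of 0. All groups were clear of each other. The log2 fold change was -5.45 ± 0.63 (SE) in FSClow against EpCAM (edgeR adjusted p = 1.8e-07), -2.02 ± 0.63 in FSChi against EpCAM (0.021) and 3.43 ± 0.65 in FSChi against FSClow (0.0004). Of the 4 atypical receptor genes tested, Pitpnm3 was also lower than EpCAM in both gates, and Ccrl2 was not called.

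**Figure D4:**
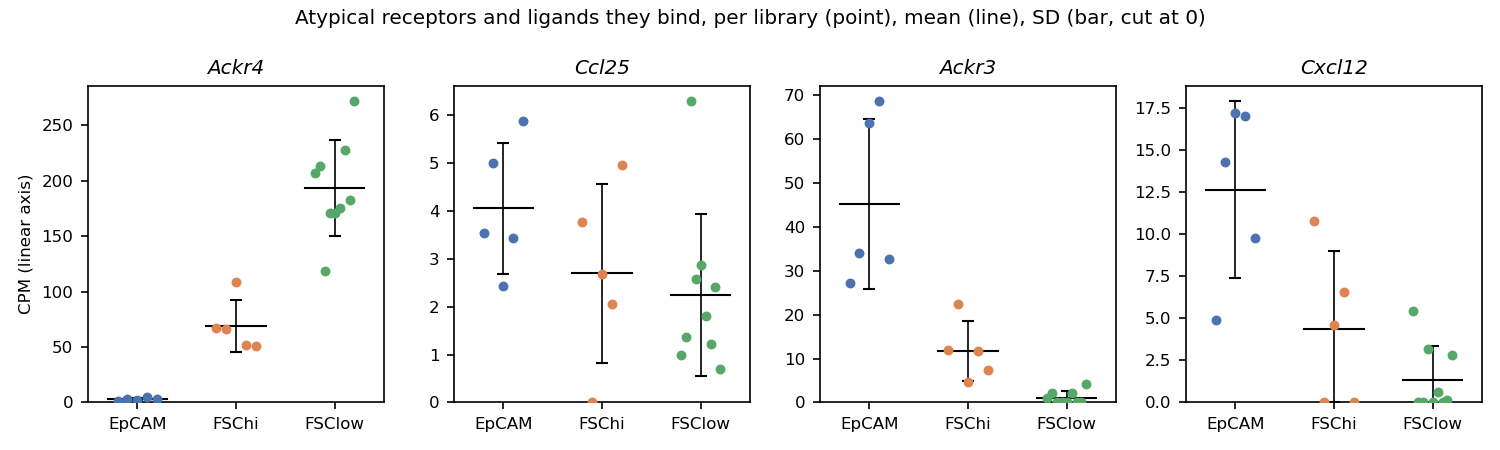
CPM of Ackr4 and Ackr3 and of a ligand each of them takes up, Ccl25 and Cxcl12, in each library (points; replicates run from left to right), with group mean (line) and SD (bar, not drawn under 0), on linear axes that differ between panels. Ackr4 is highest in FSClow (119 to 272 CPM) while Ackr3 and Cxcl12 are highest in EpCAM; Ccl25 overlaps between all groups.

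Of 19 chemokine-like genes outside the symbol rule (platelet chemokines, the Cmtm and Tafa families, Cklf, Mif and Rarres2), 11 were tested and 8 were not. Among the 11, 7 were higher, 0 lower and 4 not called in FSClow against EpCAM, where 22.0% of all genes were higher. In FSChi 8 were higher and 0 lower than in EpCAM, where 13.5% of all genes were higher. Cmtm8, a membrane protein with a MARVEL domain, averaged 19.8 ± 4.11 CPM (SD, n = 5) in EpCAM, 193 ± 52.8 (n = 5) in FSChi and 302 ± 76.2 (n = 9) in FSClow. Cmtm7 averaged 17.6 ± 5.09, 86.1 ± 24.0 and 138 ± 45.9 CPM in the same order. Mif, a cytokine that also binds Cxcr2 and Cxcr4, averaged 153 ± 46.3 CPM in FSChi and was higher there than in EpCAM (log2 fold change 1.39 ± 0.34 SE, edgeR adjusted p = 0.0037), while FSClow gave 0.03 ± 0.30 (0.94). The median log2 fold change of the 11 genes was 2.01 in FSClow and 1.46 in FSChi against EpCAM.

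Genes that act upstream of chemokines were followed as lists. Of 18 chemokine-inducing cytokines 4 were tested, and Il6, Il18 and Il33 were lower in FSClow than in EpCAM, where 23.1% of all genes were lower. Il6 had no read in FSClow, so it passed the filter through the other groups and could not be called higher there. Its mean was 11.6 ± 8.17 CPM (SD, n = 5) in EpCAM. Il33 averaged 4.34 ± 1.99 CPM (SD, n = 9) in FSClow and 33.1 ± 18.7 (SD, n = 5) in EpCAM. The counts for these cytokines are thus a description of the 4 tested. In FSChi none of the 4 was called against EpCAM, and 3 were higher than in FSClow, where 15.5% of all genes were higher. Of 15 tested receptors for such cytokines, 6 were higher and 4 lower in FSClow than in EpCAM. Of all genes 22.0% were higher and 23.1% lower there, so the lower ones are near the share of all genes. The lower ones were Il17re, the receptor chain for Il17c (0.707 and 27.0 CPM), Il17rc (9.24 and 41.7), Il1r1 (0.0509 and 8.59) and Tlr4 (0.856 and 7.84). The same 4 were lower in FSChi, with Ifngr1, and 3 receptors were higher there, beside 12.2% lower and 13.5% higher of all genes.

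Of 21 NF-kB subunits and feedback genes tested, 5 were higher and 4 lower in FSClow than in EpCAM, with a median log2 fold change of -0.24, and this share is near the 45.1% of all genes called. Nfkb1 (-1.57 ± 0.32 SE, edgeR adjusted p = 0.00024) and Tnfaip3 were among the lower ones, and Zc3h12a, an endoribonuclease that degrades inflammatory mRNAs, was higher (30.6 against 5.01 CPM). Rela and Nfkbia were not called in any comparison. Of 16 tested interferon-induced genes, 2 were higher (Irf7 and Usp18) and 7 lower in FSClow than in EpCAM, beside 22.0% and 23.1% of all genes. In FSChi 2 were higher and 1 lower than in EpCAM, beside 13.5% and 12.2% of all genes. Of 7 tested chemokine processing enzymes, Mmp2, Cpm and Anpep were lower in FSClow than in EpCAM and none was higher, beside 23.1% and 22.0% of all genes.

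Markers of several other epithelial cells were, like the ligands, highest in EpCAM and lowest in FSClow. Basal cell markers summed to 2320 to 6590 CPM in EpCAM, 109 to 2140 in FSChi and 10.4 to 157 in FSClow, and 8 of 10 were higher in FSChi than in FSClow. Secretory cell markers summed to 8770 to 22500, 516 to 13500 and 36.1 to 337 CPM, and 7 of 9 tested were higher in FSChi than in FSClow. Olfactory sensory neuron markers, summing to 3390 to 5990, 238 to 3810 and 64.9 to 277 CPM, were higher in FSChi for 10 of 10. The calls of these 3 lists stand beside 15.5% of all genes higher in FSChi than in FSClow. No marker of these 3 lists was at 0 in any group. Ciliated cell markers did not share this order of summed levels, with medians of 1050 CPM in EpCAM, 1280 in FSChi and 1490 in FSClow. Even so, 5 of 7 were lower and 1 higher in FSClow than in EpCAM, beside 23.1% and 22.0% of all genes. Pan-epithelial markers were higher in FSClow than in EpCAM for 6 of 7 and lower for 1, beside the same shares of all genes. Within FSChi the secretory and basal sums did not follow the ligands library by library. The olfactory sensory neuron sums were 3810, 238, 1490, 3230 and 1930 CPM in replicates 1 to 5. Their order was that of the ligand sums except for replicates 3 and 5. The ligand sum was 105, 30.5, 101, 104 and 38.6 CPM in replicates 1 to 5, beside secretory sums of 7930, 516, 2510, 13200 and 13500 CPM, and the lowest basal sum of 109 CPM was in replicate 3. Ionocyte or microvillar cell markers summed to 22.3, 13.7, 410, 950 and 17.7 CPM in FSChi replicates 1 to 5, beside Ccl9 at 0, 0, 25.7, 16.6 and 4.96 CPM. Mononuclear phagocyte markers summed to 48.7, 42.6, 193, 632 and 36.9 CPM in the same libraries. Only 3 of these 10 markers were tested. Adgre1, C1qc and Fcgr1 had no read in FSChi, and Adgre1, C1qb and C1qc had none in EpCAM. Lyz2, also made by some epithelial cells, made up most of the EpCAM sum, so this sum is no measure of phagocytes. In EpCAM replicates 1 to 5 Ccl9 was 15.7, 16.2, 106, 14.2 and 16.7 CPM. The ionocyte sums of these libraries were 1660, 2020, 3130, 4160 and 1950 CPM. Their phagocyte sums were 3190, 476, 3450, 1090 and 851 CPM, so neither list followed Ccl9 through all EpCAM libraries. The part of these cells in the ligand differences was not tested.

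Leukocytes also make chemokines, and the sort excluded CD45-positive cells. Ptprc, which encodes CD45, had no read in EpCAM and averaged 12.5 ± 9.38 CPM (SD, n = 9) in FSClow and 6.90 ± 6.40 (SD, n = 5) in FSChi. The 20 leukocyte markers summed to 456 to 3410 CPM in EpCAM, of which Lyz2, also made by some epithelial cells, averaged 1720 ± 1370 (SD, n = 5). Cd3e, Adgre1, C1qb, C1qc and S100a9 had no read in EpCAM. Of the 6 leukocyte markers tested, 4 were lower and 1 higher in FSClow than in EpCAM, beside 23.1% and 22.0% of all genes. FSChi had 0 lower and 1 higher than EpCAM, beside 12.2% and 13.5%. In FSChi Cd52, Cd3e, Adgre1 and C1qc were at 0, in FSClow Cd3e, Ms4a1 and C1qc, and the summed level was 42.6 to 633 and 15.8 to 69.9 CPM. Granulocyte markers summed to no more than 10.3 CPM in any library. Lymphocyte markers went the other way, summing to 33.8 to 83.9 CPM in FSClow, 20.5 to 60.3 in FSChi and 0.238 to 2.11 in EpCAM. Only 1 of these 10 markers was tested, and it was higher than in EpCAM in both gates, beside 22.0% and 13.5% of all genes. Cd3e, Cd3g and Nkg7 had no read in any group. Stromal and endothelial markers summed to 97.5 to 178 CPM in EpCAM, 4.02 to 169 in FSChi and 1.26 to 13.9 in FSClow, and only Kdr in FSChi was at 0. The part of stromal cells in the level of Cxcl12, which they are known to make, was not tested.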

How the data were processed

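The members and gene lists were chosen with earlier results of these data known. The submitters' processing notes name DESeq2, featureCounts, Picard 1.1073, STAR 2.4.2a, RSEM 1.2.21 and the mm10 genome, and give no roles. Whole-read counts for 27179 Entrez genes were deposited by the authors in one table. Their deposited normalized table (26221 rows) is a signal obtained by scaling those counts with one size factor per library. Recovered as whole reads, 100% of its values came out whole within 0.01 and equalled the count table, so the count test is the main result for both. The deposited separate files hold RSEM expected counts, rounded before use, and, per the file headers, TPM. Symbols came from RefSeq for 25275 identifiers and from the normalized table for 582, and 1322 stayed unnamed. Strand use in counting is not given in the sources used here. The symbol rule also matches 2 rows of the count table that the normalized table lacks; they are no members.

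Counts were analysed with edgeR 4.0.16 (R 4.3.3): filterByExpr by group, TMM scaling and a robust quasi-likelihood fit with group as its only term over all 19 libraries, adjusted by Benjamini-Hochberg over 13340 genes. Levels are CPM with TMM-scaled library totals. Standard errors come from the F statistic. Lists are described by counts of calls and medians, without a set test. Members that passed the filter and were called in a comparison or averaged at least 5 CPM in a group are described in full (10 members). Alternatives used DESeq2 1.42.0 and limma 3.58.1, other scalings, filters and inputs, a replicate block, and each library left out. The code was tested on simulated data. A fold against a group without reads uses a floor of 3 reads over that group's libraries and covers counting error only. Replicate numbers were not taken as pairs: the labels do not tie them, and same-numbered libraries correlated from -0.192 to 0.17, -0.049 to 0.254 and -0.099 to 0.404 in the 3 comparisons.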

Additional observations from a re-analysis of the deposited data

Results flagged for a closer look

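In 30 sets of libraries (10 members by 3 groups), 8 had a library far from the others of its group. Such a gap is set to arise by chance in about 1 in 20 sets of normally distributed values, a rate that does not apply to the 3 sets below in which a single library had reads. Ccl9 was 106 CPM in EpCAM replicate 3 (564 reads) with the next library at 16.7 CPM. Cxcl16 was 20.6 CPM in FSClow replicate 3, next 9.17 CPM. Ccl20 was 8.04 CPM in FSChi replicate 2 (10 reads), next 0.941 CPM. FSClow replicate 1 was high for both Cxcl1 (6.45 CPM, next 2.06) and Cxcl5 (3.97 CPM, 8 reads, the other FSClow libraries at 0). Cxcl17 was 2.72 CPM in FSClow replicate 6, next 0.682 CPM. The remaining flags rest on few reads, with Ccl9 at 0.856 CPM in FSClow replicate 8 (5 reads) and Cxcl5 at 1.12 CPM in FSChi replicate 4 (6 reads), where all other libraries of the group had none.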

How the results depend on the processing

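No member was called higher than EpCAM in either gate under any alternative run. Leaving out each library in turn gave 9 to 11 members lower in FSClow than in EpCAM, 3 to 4 lower in FSChi than in EpCAM and 4 to 7 higher in FSChi than in FSClow. The number of members tested changed with the filter and the input. The share of all genes called under each alternative is not given here, so these counts stand without it. FSClow against EpCAM had 18 of 33 members tested lower with no filter on low counts and 16 of 33 with the normalized table. FSChi against EpCAM had 2 of 11 lower with DESeq2 and 2 of 12 with columns most similar to their own file. It had 10 of 18 lower with log2(TPM + 1), 8 of 30 with that and no filter, and 8 of 33 with the normalized table. FSChi against FSClow had 1 higher in a fit of these groups alone, 2 with columns most similar to their own file, 0 with log2(TPM + 1), with log2(TPM + 0.1) and with TPM and no filter, and 3 with TPM without the nearly empty file. With the replicate number as a block 0 were higher (3 members tested), and the same libraries without the block gave 1. That last fit and leaving out the nearly empty file were chosen after seeing the data. The causes were not tested. The fits of FSChi and FSClow alone tested 3 or 4 members, and the fit on columns most similar to their own file used 14 libraries. With the nearly empty file kept, the median of all genes was -0.78 in FSChi against EpCAM and -0.60 in FSChi against FSClow with log2(TPM + 1), -1.53 and -1.22 with log2(TPM + 0.1), and -0.33 and -0.14 with TPM and no filter, so the TPM counts above stand beside that shift; without that file it was -0.21 and -0.09 with log2(TPM + 1). With the normalized table it was -0.21 in FSClow and -0.19 in FSChi against EpCAM. Relative log expression scaling moved the median of all genes from 0.05 to -0.14 in FSClow against EpCAM and from -0.02 to -0.14 in FSChi against EpCAM.

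Over the 10 members described in full, 822 values under alternatives comprised 726 on the same side of the threshold with the same direction, 52 that lost and 20 that gained the call, and 24 of opposite sign. Of the last, 22 were Ccl20 or Cxcl5 in FSChi against FSClow, neither of them called. Ccl20 there ranged from -1.79 to 0.66 over the libraries left out, and was 0.44 with DESeq2, 1.63 with columns most similar to their own file, 0.30 and 0.32 with RSEM counts with and without the nearly empty file, 0.11 with log2(TPM + 1) with or without the filter, 0.49 without the nearly empty file, 0.81 with log2(TPM + 0.1) and 0.25 with the normalized table. Cxcl5 ranged from -3.46 (without FSChi replicate 4) to 3.36 (without FSClow replicate 1), where 1 group then has no read, and was 0.07 with log2(TPM + 0.1) and 0.04 with the normalized table. Ccl9 in FSChi against FSClow was -2.52 with columns most similar to their own file and Ccl27a -0.16 with log2(TPM + 0.1). Members with under 10 reads in a group are limited by depth.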
